A study of Homo sapiens with 8 samples.

Results

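FGF2, its close relative FGF1 and the receptors FGFR1, FGFR2, FGFR3 and FGFR4 were followed in pancreatic ductal adenocarcinoma cells with and without siRNA against HOXB7. Every probe that the array annotation assigns to 1 of these 6 genes (of 27274 gene names in the annotation) was taken and kept apart, which gave 13 of the 34127 gene probes. FGF2 had 2 probes, FGF1 had 3, FGFR1 had 3, FGFR2 had 2, FGFR3 had 2 and FGFR4 had 1, each on a single spot. Probes of a gene are numbered by their mean brightness over the arrays. FGF2 is known as a target of HOXB7 in other tumors and was chosen because its level was lower in siRNA-treated MIA PaCa-2 cells, so the values of the 6 genes in that comparison are given as a description, without a test.

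The cells were MIA PaCa-2, a line of a primary tumor, and Capan-1, a line of a liver metastasis, hybridized to Agilent arrays of a single color. In both lines, 2 arrays held RNA of cells given siRNA specific for HOXB7 (10 nM) and collected after 48 hours, and 2 held RNA of parental cells as control, 8 arrays in all. No array held cells given a scrambled siRNA, so effects of transfection cannot be told apart from effects of HOXB7 silencing. The lines also grew in different media, RPMI for MIA PaCa-2 and IMDM with a higher share of serum for Capan-1. Each line lay on its own slide, so line, medium, serum and slide cannot be told apart, nor can treatment and position on the slide. The paper names only RPMI for plating before transfection, so medium may also differ between siRNA-treated and parental Capan-1 cells.

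FGF2 and FGF1 are heparin-binding growth factors that leave the cell without a signal peptide and bind cell-surface receptors together with heparan sulfate. The receptors FGFR1 to FGFR4 are tyrosine kinases that signal through the adaptor FRS2 to the MAP kinase and PI3 kinase pathways. In the pancreas, signaling through FGFR2 takes part in organ development, and FGF2 is known as a mitogenic and angiogenic factor in pancreatic tumors.

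The FGF2 probes overlap and lie next to each other on chromosome 4 (hg18, plus strand), probe 1 at chr4:124038781-124038840 and probe 2 at chr4:124038767-124038826. Both are 60 bases long and share 46 bases, so they are not independent measurements of the transcript. Their unshared ends are shown because both probes report the same FGF2 transcript at different brightness. Of the bases of probe 1, 30.0% are G or C, against 21.7% in probe 2.
Bases only in FGF2 probe 2 (5′ end): ttttatgtaaaaat
Bases only in FGF2 probe 1 (3′ end): ttttcttgtctccc

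The 101 bases before the start of FGF2 (RefSeq, GRCh38.p14, plus strand, chr4:122826581-122826681) are shown because HOXB7 is a homeodomain transcription factor. Capitals mark the GC box GGGCGG, which lies on the minus strand, starting 74 and 56 bases before the gene start.
FGF2 upstream: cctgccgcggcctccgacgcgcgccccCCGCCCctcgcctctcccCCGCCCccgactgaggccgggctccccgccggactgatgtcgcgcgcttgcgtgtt
The whole window of 300 bases in the promoter table held 3 GC boxes, the last 54 bases inside the gene, and 1 homeodomain core TAAT on the minus strand, 155 bases inside the gene. The composite TGATNNAT of HOX and PBX proteins did not occur in it. Searched on both strands without other overlaps being removed, TAAT occurred in 50.2% of 35114 promoter windows of this length, TGATNNAT in 7.40% and GGGCGG in 45.0%. TAAT was also found in 2 of 4 windows of FGF1 and 3 of 5 windows of FGFR2, in 0 of 1 window of FGFR3 and in 0 of 2 windows of FGFR4. FGFR1 was left out of this count by gene. These matches are only occurrences of letters in the windows.

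Levels are given as the log2 of the processed intensity minus the 75th percentile of the same array, so that 0 is the level of a bright probe. The software calls a spot well above background or not, and between 69.2% and 74.3% of the gene spots of an array were. Of the 13 probes, 5 were well above background on all arrays and 2 on none. Testing a probe required 1 or both of the groups compared to have it well above background in duplicate, and p-values come from limma, two-sided and adjusted by Benjamini-Hochberg over all probes tested, with 0.05 as the threshold. The change after siRNA is given as a log2 ratio of siRNA-treated to parental cells with its standard error (SE). Where 1 group lay in the background on both arrays, the difference is given as at least N-fold, computed against the lowest level that was well above background, since the fitted value is not a bound. An adjusted p beside such a bound belongs to the fitted difference, and the bound itself was not tested. The labels do not say whether duplicates came from separate cultures, so p-values measure the spread between these arrays, which may be technical. An exact permutation test of 2 arrays against 2 cannot give a p under 0.333, so the tests rest on a spread estimated across probes.

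HOXB7, the siRNA target, has 1 probe at chr17:44039988-44040047 (hg18). In MIA PaCa-2 the level was -4.82 and -4.10 in parental cells and -7.77 and -7.78 after siRNA, where neither array was well above background, so it fell at least 2.46-fold (adjusted p = 0.0174). In Capan-1 it was -2.48 and -2.34 in parental cells and -5.26 and -4.80 after siRNA, a log2 ratio of -2.62 (SE 0.26, adjusted p = 0.126). HOXB7 was thus lower on both siRNA arrays of each line, but the change in Capan-1 did not pass the threshold. It did pass in 5 alternatives, with adjusted p of 0.0453 with a normexp background correction, 0.0201 without scaling, 0.0268 with spike-in scaling, 0.0352 with an intensity trend in the spread and 0.0425 without siRNA replicate 2 of Capan-1. When single arrays were omitted, the adjusted p in MIA PaCa-2 lay between 0.0124 and 0.0827, the threshold being missed without any 1 of the Capan-1 arrays, and MIA PaCa-2 fitted alone gave 0.122. With the normexp correction the log2 ratio in MIA PaCa-2 was -0.10 (adjusted p = 0.589).

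FGF2 mRNA was measured in parental MIA PaCa-2 cells, was lower after HOXB7 siRNA, and was not well above background in Capan-1. On probe 1 the level was -2.41 and -2.43 on the parental MIA PaCa-2 arrays and -4.40 and -4.75 on the siRNA arrays, all 4 well above background. The groups did not overlap, and the siRNA arrays were lower by a log2 ratio of -2.15 (SE 0.15), or 4.45-fold. In processed intensity this was 61.7 and 48.9 units in parental cells against 11.8 and 9.6 units after siRNA, a weak signal throughout. With a normexp background correction, whose offset of 50 exceeds most of these intensities, the ratio was -0.44 for probe 1 and -0.10 for probe 2.

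On probe 2 the parental MIA PaCa-2 arrays gave -4.05 and -3.89, both well above background, and the siRNA arrays gave -6.11 and -7.08, both in the background. FGF2 was therefore at least 3.44-fold lower on this probe, the same direction as on probe 1. Since the arrays measure the RNA of all cells together, fewer cells with FGF2 mRNA and less FGF2 mRNA per cell cannot be told apart.

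In Capan-1 neither FGF2 probe was well above background on any array. Probe 1 gave -7.49 and -7.63 in parental cells and -7.76 and -7.54 after siRNA, and probe 2 gave -7.50 and -7.64 against -7.77 and -7.56. On these 4 arrays the software had replaced the intensity of both probes by a surrogate value, between 1.2 and 1.6 units, so no difference could be measured between the Capan-1 groups. The effect of siRNA on FGF2 was not tested between the lines, because Capan-1 gave only a background level.

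The spread of the parental duplicates was also used as a yardstick, as a description. FGF2 was chosen for its lower level after siRNA in MIA PaCa-2, so its place against this yardstick there is no test. In a window of 1000 probes of like intensity, an interval was drawn that holds 99% of the log2 ratios between both parental arrays. FGF2 probe 1 lay below it in both same-numbered MIA PaCa-2 pairs, with log2 ratios of -1.99 and -2.32 against limits of 1.5 and 1.53 on either side. FGF2 probe 2 stayed inside, with log2 ratios of -2.06 and -3.19 against wider limits of 3.95 and 4.29. Of the 13 probes, FGF2 probe 1 was the only one outside in MIA PaCa-2, where 0.158% of all probes lay below and 0.188% above the interval in both pairs. In Capan-1 it was 0 of 13, where 0.516% of all probes lay below and 0.703% above.

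**Figure D1:**
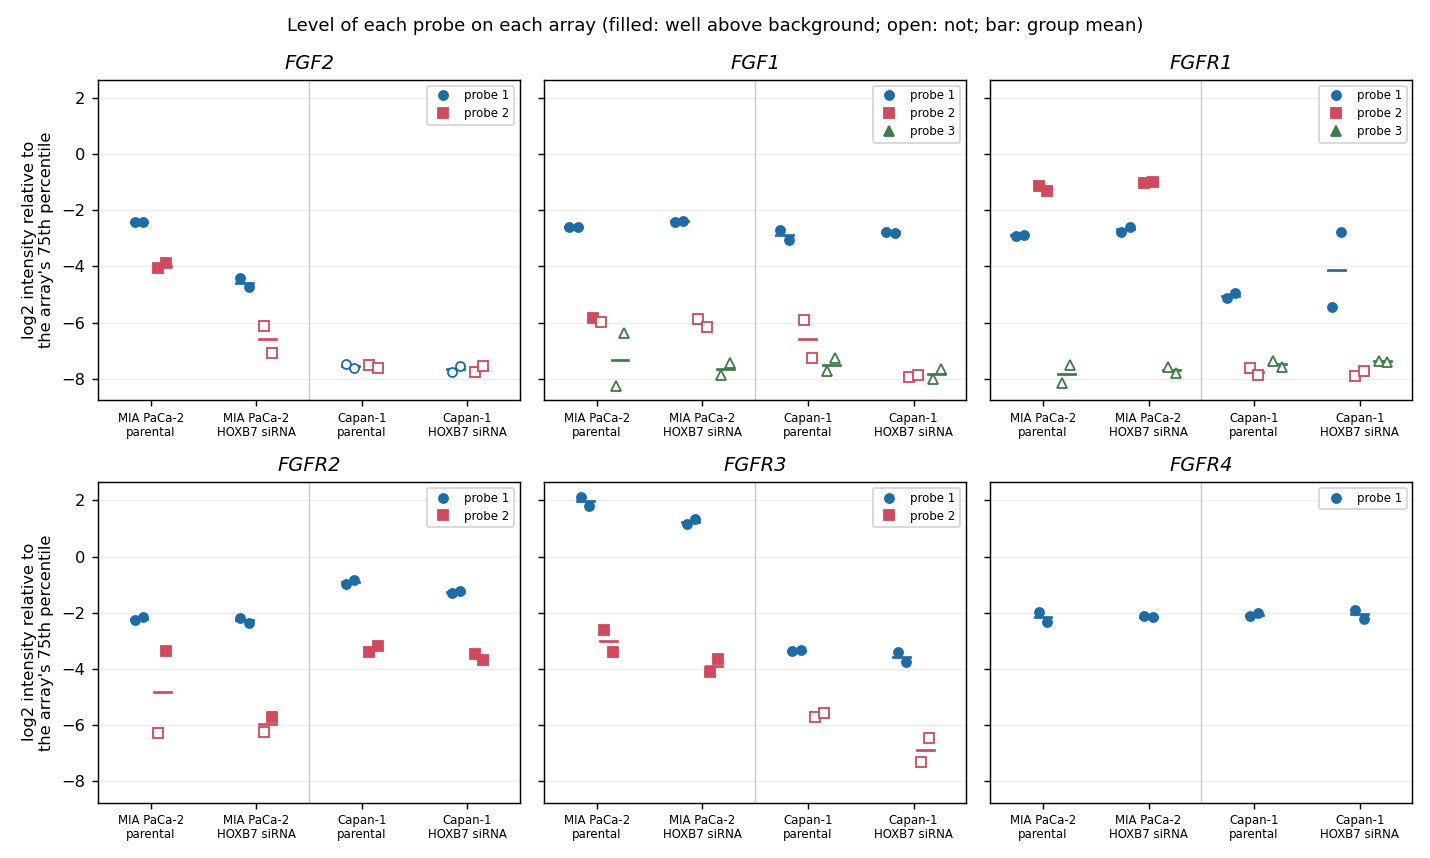
Log2 intensity relative to the 75th percentile of the array (y axis) of each probe on each of the 8 arrays, by group (x axis); filled symbols are well above background, open symbols are not, and bars are means of 2 arrays. FGF2 probe 1 sits near -2.4 in parental MIA PaCa-2 cells, between -4.40 and -4.75 after siRNA, and in the background on all Capan-1 arrays.

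FGF2 overlaps NUDT6, a gene on the opposite strand, by 5660 bases at its 3′ end (GRCh38.p14, FGF2 at chr4:122826682-122898236 and NUDT6 at chr4:122892577-122922968). The NUDT6 transcript is known as a natural antisense RNA of FGF2. Its probe, at chr4:124033608-124033667 (hg18), does not overlap the FGF2 probes. In MIA PaCa-2 the level of NUDT6 was 0.40 and 0.53 in parental cells and 0.11 and 0.00 after siRNA, a log2 ratio of -0.41 (SE 0.12, adjusted p = 0.146). The Capan-1 arrays gave -0.93 and -0.91 in parental cells and -1.31 and -1.01 after siRNA, a log2 ratio of -0.24 (adjusted p = 0.476). NUDT6 was lower on both siRNA arrays of each line without passing the threshold in either. SPATA5, on the other side of NUDT6, gave -2.84 and -4.36 in parental MIA PaCa-2 cells and -3.95 and -4.11 after siRNA (log2 ratio -0.43, adjusted p = 0.775). The ratio of SPATA5 was 0.33 without parental replicate 1, so its sign rests on that array.

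**Figure D2:**
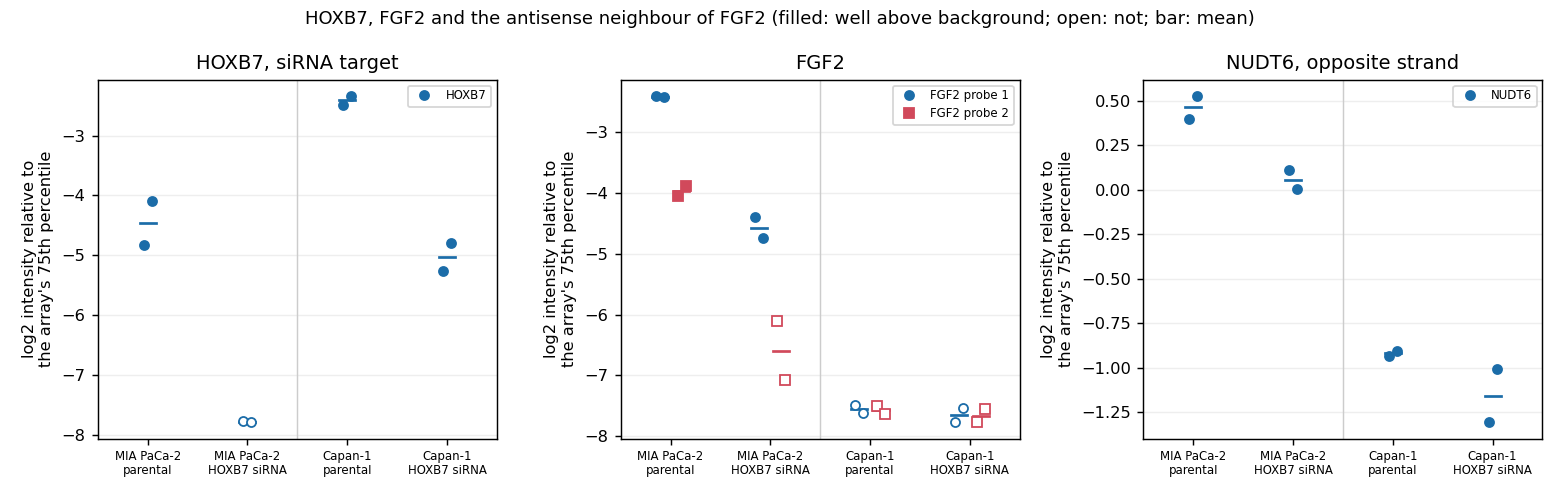
Log2 intensity relative to the 75th percentile of the array (y axes, each with its own range) of HOXB7, FGF2 and NUDT6 in the 4 groups (x axes); filled symbols are well above background, open symbols are not, and bars are means of 2 arrays. HOXB7 is lower on both siRNA arrays of each line, and NUDT6 is above background on all 8 arrays. FGF2 probe 1 is above background on all MIA PaCa-2 arrays, and FGF2 probe 2 only on the parental ones.

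FGF1, the other ligand, gave a measurable level on 1 of its 3 probes. Probe 1, at chr5:142057461-142057520 (hg18) and annotated to a non-coding FGF1 transcript, was well above background on all arrays. Its level was -2.61 on both parental arrays of MIA PaCa-2 and -2.40 and -2.39 after siRNA, a log2 ratio of 0.21 (SE 0.12). In Capan-1 the arrays gave -2.71 and -3.06 in parental cells and -2.76 and -2.81 after siRNA, a log2 ratio of 0.10 (adjusted p = 0.770, 95% confidence interval -0.20 to 0.40). FGF1 probe 1 showed no change past the threshold in Capan-1, and its groups there overlapped. Probes 2 and 3, at chr5:141954996-141955055 and chr5:141953631-141953690 and annotated to the coding transcript, were well above background on 1 and 0 of the arrays, so they were not tested.

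FGFR1, a receptor that binds both FGF2 and FGF1, was measured in MIA PaCa-2 on probes 1 and 2 and in Capan-1 on probe 1 only. Its probe 2 lies at chr8:38389627-38389686 (hg18). There the level was -1.13 and -1.32 in parental MIA PaCa-2 cells and -1.01 and -1.0 after siRNA, a log2 ratio of 0.22 (SE 0.12). On the 4 Capan-1 arrays it lay between -7.90 and -7.63, all in the background. FGFR1 probe 2 thus gave a level in MIA PaCa-2 and none well above background in Capan-1, so it was not tested for siRNA in Capan-1.

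FGFR1 probe 1, at chr8:38434130-38434189 and annotated to another transcript variant, was well above background on all arrays. In MIA PaCa-2 it gave -2.90 and -2.88 in parental cells and -2.77 and -2.58 after siRNA. In Capan-1 it gave -5.14 and -4.96 in parental cells but -5.45 and -2.77 on the siRNA arrays, a log2 ratio of 0.94 (SE 0.78, adjusted p = 0.649). The Capan-1 siRNA arrays disagreed by more than any other duplicate pair of this probe, on 1 spot each. Without siRNA replicate 1 the ratio was 2.28 (adjusted p = 0.0182), and without siRNA replicate 2 it was -0.40. Probe 3, at chr8:38400710-38400769, was in the background on all arrays.

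FGFR2, whose epithelial form is the receptor of FGF7 and FGF10, was measured in both lines. Probe 1, on chromosome 10 with only chr10:123227820-123227833 (hg18) given in the file, was at -2.25 and -2.16 in parental MIA PaCa-2 cells and at -2.18 and -2.36 after siRNA. These groups overlapped, with a log2 ratio of -0.061 (SE 0.11). In Capan-1 the level was -0.98 and -0.84 in parental cells and -1.30 and -1.21 after siRNA. The siRNA arrays were lower without overlap, with a log2 ratio of -0.34 (SE 0.11, 95% confidence interval -0.60 to -0.084) that did not pass after adjustment (adjusted p = 0.326, unadjusted p = 0.0176).

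FGFR2 probe 2, at chr10:123233207-123233266, carries sequence that codes for the end of the tyrosine kinase domain and is shown, with no base marked, because it separated the lines less clearly than probe 1.
FGFR2 probe 2: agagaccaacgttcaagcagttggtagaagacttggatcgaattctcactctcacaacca
In parental MIA PaCa-2 cells it gave -6.30, in the background, and -3.35, well above it, so the duplicates disagreed, and after siRNA it gave -6.25 and -5.72. In Capan-1 it gave -3.40 and -3.19 in parental cells and -3.46 and -3.71 after siRNA, a log2 ratio of -0.29 (SE 0.88, adjusted p = 0.925). The siRNA arrays were lower here too, but by less than the spread of this probe.

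FGFR3, a receptor for which FGF1 is a ligand, had the brightest probe among the members in MIA PaCa-2, with a processed intensity between 548 and 1439 units. Probe 1, at chr4:1780161-1780220 (hg18), gave 2.13 and 1.81 in parental MIA PaCa-2 cells and 1.14 and 1.35 after siRNA. The siRNA arrays were lower without overlap, by a log2 ratio of -0.73 (SE 0.17), or 1.66-fold. Probe 2, at chr4:1778852-1778911, gave -2.62 and -3.39 in parental cells and -4.13 and -3.65 after siRNA, a log2 ratio of -0.89 (SE 0.37). Its siRNA arrays were also below its parental arrays, with a wider spread between duplicates, and with the normexp correction its ratio was -0.11.

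In Capan-1 FGFR3 probe 1 gave -3.38 and -3.34 in parental cells and -3.41 and -3.76 after siRNA, a log2 ratio of -0.23 (SE 0.17, adjusted p = 0.606, 95% confidence interval -0.63 to 0.18). Both siRNA arrays were lower, 1 of them only slightly. FGFR3 probe 2 gave -5.72 and -5.58 against -7.32 and -6.45 there, with no array well above background, and was not tested.

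FGFR4, the receptor of FGF19 with its co-receptor KLB, was at a like level in all 4 groups. Its probe, at chr5:176455727-176455786 (hg18), codes for the kinase domain, and its sequence is shown as the member whose level varied least between the groups.
FGFR4 probe 1: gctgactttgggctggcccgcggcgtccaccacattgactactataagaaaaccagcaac
The level was -1.99 and -2.35 in parental MIA PaCa-2 cells and -2.14 and -2.15 after siRNA. In Capan-1 it was -2.10 and -2.03 in parental cells and -1.90 and -2.22 after siRNA. All groups overlapped with their neighbors, except that the parental Capan-1 arrays lay above the siRNA arrays of MIA PaCa-2. The log2 ratio after siRNA was 0.022 (SE 0.16) in MIA PaCa-2, and it was -0.19 without scaling between arrays. In Capan-1 it was 0.0071 (adjusted p = 0.993, 95% confidence interval -0.38 to 0.39), and it was -0.15 without scaling between arrays.

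Counted over the probes, siRNA and parental arrays of MIA PaCa-2 did not overlap for 7 of 9 probes measured there. The siRNA arrays were lower for 4, both probes of FGF2 and of FGFR3, where 23.6% of all probes tested were lower without overlap. They were higher for 3, FGF1 probe 1 and FGFR1 probes 1 and 2, where 27.8% of all probes were. By limma 0.932% of 23711 probes were lower and 0.962% higher in this comparison, and since FGF2 was chosen on it nothing is read from these shares. Without scaling between arrays the median of all tested probes moved from 0.019 to -0.19, and the log2 ratios of FGF1 probe 1, FGFR1 probe 1 and FGFR1 probe 2 to 0.0018, 0.0075 and 0.0026, so these were above the median of all probes under both scalings.

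In Capan-1, 0 of 6 member probes tested passed the limma threshold after siRNA, where 0.00428% of 23367 probes did (1 probe, higher) and 0% were lower. At an unadjusted p under 0.05 it was 1 of 6, FGFR2 probe 1, and 2910 of all probes. Without siRNA replicate 1 of Capan-1 the count was 1 of 6, FGFR1 probe 1. Lower siRNA than parental arrays, without overlap, were seen for 3 of 6 probes, those of FGFR2 and FGFR3 probe 1, where 27.9% of all probes did, and above for 0, where 26.3% did.

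**Figure D3:**
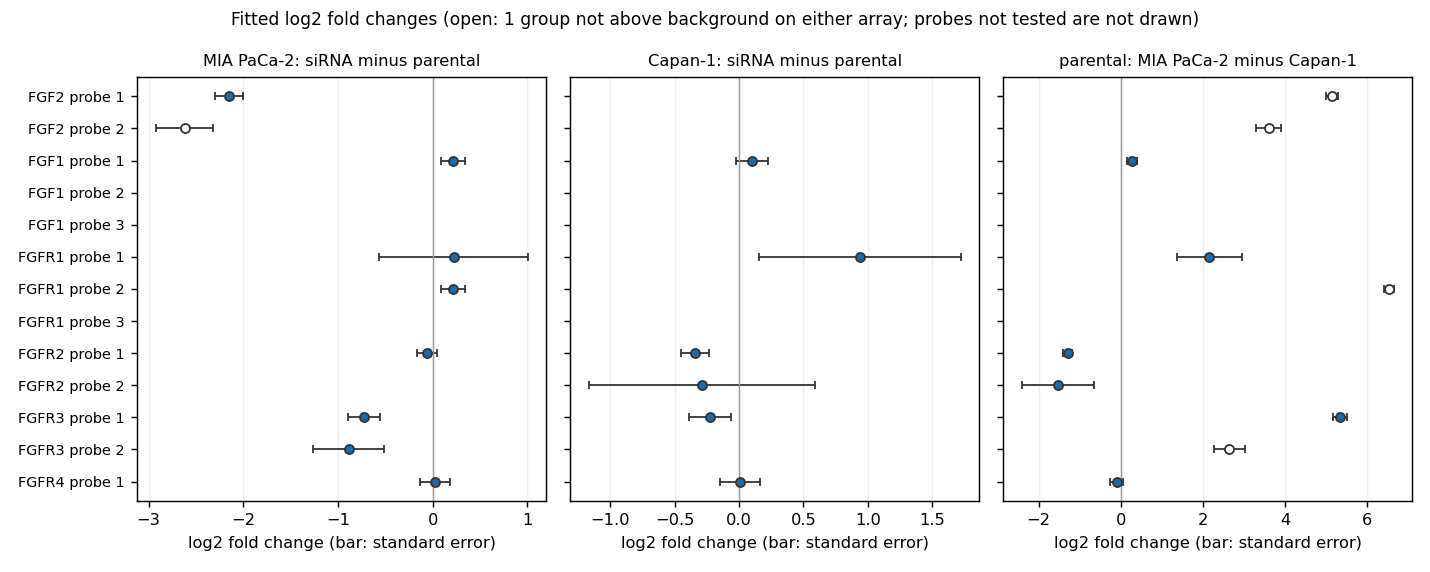
Fitted log2 ratio (x axis, bars are standard errors) of each tested probe (y axis) for siRNA against parental cells in each line and for parental MIA PaCa-2 minus parental Capan-1; open symbols have 1 group in the background on both arrays, where the fitted value is not a bound. In Capan-1 the values after siRNA lie between -0.34 and 0.94, and between the lines they reach 6.52 for FGFR1 probe 2.

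Between the parental lines, FGF2, FGFR1 and FGFR3 were higher in MIA PaCa-2 and FGFR2 was higher in Capan-1 on its brighter probe. Of 10 member probes tested, 7 passed the limma threshold, 6 higher and 1 lower in MIA PaCa-2, where 39.1% of 24964 probes were higher, 31.0% lower and 70.1% either. The parental arrays did not overlap for 8, 7 higher and 1 lower in MIA PaCa-2, where 47.5% and 39.0% of all probes did not. The share among the members is near that of the arrays as a whole. FGF2 probes 1 and 2, FGFR1 probe 2 and FGFR3 probe 2 were in the background in Capan-1 and entered the test only through MIA PaCa-2. Their direction thus follows from the filter. Among probes well above background on all 8 arrays, 3 member probes passed. Differences are given as the log2 level in parental MIA PaCa-2 minus that in parental Capan-1. The parental MIA PaCa-2 arrays also enter the comparison on which FGF2 was chosen.

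FGF2 was higher in MIA PaCa-2, at least 9.89-fold on probe 1 and at least 3.37-fold on probe 2. FGFR1 probe 2 was at least 22.7-fold higher. No adjusted p is given for these probes, because their direction follows from the filter. The Capan-1 values of these probes are surrogate values of the software, so their spread is not one of measured signal. FGFR1 probe 1 was higher by 2.16 on the log2 scale (SE 0.78, adjusted p = 0.0478). That last call was lost without siRNA replicate 1 or 2 of MIA PaCa-2, or without either parental array of MIA PaCa-2 or of Capan-1, with adjusted p between 0.0738 and 0.150, and without the filter on dim probes (0.0730). With the normexp correction the fitted log2 differences were smaller, 0.96 and 0.41 for FGF2 probes 1 and 2 and 0.60 and 1.64 for FGFR1 probes 1 and 2. FGFR1 probe 1, well above background in both lines, still passed.

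FGFR3 had the largest difference measured on both sides among the members, 5.33 on the log2 scale for probe 1 (SE 0.17, adjusted p = 2.05e-06), or 40.3-fold higher in MIA PaCa-2, and 3.76 with the normexp correction. Its probe 2, in the background in Capan-1, was at least 6.0-fold higher, with a fitted difference of 0.51 with that correction. No adjusted p is given for it either, since its direction follows from the filter. FGFR2 went the other way, with probe 1 at -1.30 (SE 0.11, adjusted p = 9.4e-05), or 2.46-fold lower in MIA PaCa-2 than in Capan-1. FGFR2 probe 2 had a difference of -1.53 (SE 0.88, adjusted p = 0.165), which was -3.01 (adjusted p = 0.00067) without parental replicate 2 of MIA PaCa-2.

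FGF1 probe 1 differed by 0.27 (adjusted p = 0.0917, 95% confidence interval -0.029 to 0.58), and it passed without parental replicate 1 of Capan-1 (0.45, adjusted p = 0.0175) and with quantile scaling (adjusted p = 0.0383). FGFR4 differed by -0.10 (adjusted p = 0.592, 95% confidence interval -0.48 to 0.28). In order of level, FGF2 probe 1 and FGFR3 probe 1 were highest in parental MIA PaCa-2, then in siRNA-treated MIA PaCa-2, then in both Capan-1 groups, which did not differ past the threshold for FGFR3 and were in the background for FGF2.

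Markers of cell state also differed between the parental lines. All 8 epithelial markers had a probe lower in MIA PaCa-2, and EPCAM, CDH1 and CEACAM6 were not well above background there, while the keratins KRT8, KRT18, KRT19 and KRT7 were. The summed linear level of the list, relative to the 75th percentile, was 337 to 367 in parental MIA PaCa-2 and 1195 to 1262 in parental Capan-1. Of 5 mesenchymal markers, VIM, ZEB1 and SPARC were higher and CDH2 and FN1 lower in MIA PaCa-2, with a summed level of 237 to 260.3 against 2.11 to 2.34. Fibroblast markers summed to 13.99 to 14.7 in parental MIA PaCa-2 and 0.120 to 0.126 in Capan-1, with LUM and PDGFRB in the background in both. Here COL1A2 and COL3A1 passed as higher and COL1A1 as lower in MIA PaCa-2, so the sum does not hold for each gene. Acinar markers summed to 0.0573 to 0.0701 and 7.18 to 7.51, with CPA1 in the background in both, endothelial markers to 0.415 to 0.423 and 0.321 to 0.353, and leukocyte markers to 1.19 to 1.30 and 1.29 to 1.33. The acinar PRSS1 and CELA3A passed as lower in MIA PaCa-2. The endothelial VWF and the leukocyte CD3E were lower there, while CDH5 and PTPRC of the same lists were higher. On their brightest probes, EPCAM, CDH1, CEACAM6, FN1 and PRSS1 entered the test only through Capan-1, and SPARC and COL3A1 only through MIA PaCa-2. The direction of these genes thus follows from the filter. The part of the markers in the differences of the members was not tested.

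After siRNA the epithelial markers summed to 330.1 to 331 in MIA PaCa-2, with MUC1 lower (log2 ratio -0.92, adjusted p = 0.0249), and the leukocyte markers (3 of 4 listed are on the array) to 1.95 to 2.00, with CD68 higher (0.70, adjusted p = 0.0456). The mesenchymal markers summed to 296 to 319 and the fibroblast markers to 15.1 to 15.6, with 0 of 8 genes tested past the threshold. Both calls were lost with MIA PaCa-2 fitted alone, with adjusted p of 0.125 and 0.146. That of CD68 was also lost without any 1 array and that of MUC1 without any 1 array other than siRNA replicate 2 of MIA PaCa-2. Their part in the lower FGF2 level was not tested.

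The rest of the FGF pathway was described with 5 lists holding 90 genes. A gene is counted when any probe of it passed, while the shares beside it count probes. In siRNA-treated MIA PaCa-2, 1 of 68 genes tested passed (1.47%, where 1.89% of all probes did), and 18 had an unadjusted p under 0.05, 3 lower and 15 higher, where 2371 and 2470 of 23711 probes did. The gene was DUSP5, a nuclear phosphatase of ERK induced by growth factor signaling, at -2.98 and -2.68 in parental cells and at -1.58 on both siRNA arrays. It rose by 1.25 on the log2 scale (SE 0.12, adjusted p = 0.0210). The call was lost with MIA PaCa-2 fitted alone (limma adjusted p = 0.125), and it was lost without siRNA replicate 1 of MIA PaCa-2 or any 1 of the Capan-1 arrays. In all it was lost in 10 of 19 alternatives. In Capan-1 limma called 0 of 68 genes, with 11 at an unadjusted p under 0.05, where 2910 of 23367 probes were.

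List medians after siRNA in MIA PaCa-2 were 0.25 for 18 feedback and target genes, 0.076 for 8 other FGF ligands, 0.097 for 19 co-receptors and binding proteins, -0.053 for 17 adaptors and kinases and 0.073 for 6 release factors, with 0.019 over all probes. In Capan-1 they were -0.064, -0.21, 0.054, 0.059 and 5.9e-05 over 17, 11, 18, 17 and 5 genes, with -0.0055 over all probes.

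Between the parental lines, 58 of 71 pathway genes tested passed (81.7%, where 70.1% of all probes did), 31 lower and 26 higher in MIA PaCa-2 and HSPG2 in both directions on different probes. A gene passed when any probe of it did, so its share has another unit than that of probes. As for the members, a probe in the background in 1 line entered only through the other line. Among the other FGF ligands 7 of 12 were lower and 1 higher, with a median of -1.04 over the list and 0.11 over all probes. Some of these, among them FGF7, FGF20 and FGF13, were in the background in 1 line. Their direction thus follows from the filter, and the median includes fitted values against background. FGF19, an endocrine FGF that signals through FGFR4, gave -6.09 and -7.18 in parental MIA PaCa-2, the second not well above background, and -1.95 and -2.01 in parental Capan-1. Its fitted log2 difference of -4.65 (adjusted p = 9.1e-05) thus rests partly on a background value, and it was -1.27 with the normexp correction. FGF7, the keratinocyte growth factor, was at least 3.99-fold lower on its brighter probe, while its other probe was not well above background on any array. FGF20 was at least 4.15-fold lower. The FGF20 call was lost when any 1 parental array was left out, with adjusted p up to 0.103. FGF13, an intracellular member of the family, was at least 1.27-fold higher, a call lost with the normexp correction. Under that correction the differences of dim probes in these lists were smaller, as for FGF7 (-0.49), KLB (0.53) and SYT1 (2.76).

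Of 19 co-receptors and heparan sulfate genes tested, 10 had lower and 4 higher levels in MIA PaCa-2 (median -0.71). SULF2, which trims sulfate from heparan sulfate chains outside the cell, had a log2 difference of -6.77, with levels of -3.0 and -2.93 against 3.87 and 3.76. FGFBP1, a secreted carrier that releases FGF2 from the matrix, had -6.02, and the syndecan SDC4 had -2.57 (adjusted p at most 1.6e-05 for the 3 genes), while the normexp correction gave -3.52 for FGFBP1. KLB, the co-receptor of FGF19 and FGF21, was at least 3.75-fold higher, and SDC3 was higher by 2.07 on its fainter probe and 0.37 on its brighter probe. HSPG2, which encodes perlecan, was higher by 0.93 on the probe with its largest difference in that direction, a call lost with the normexp correction (0.15, adjusted p = 0.165).

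Of 17 adaptors and kinases tested, 5 were lower and 8 higher (median 0.17). SHC1, an adaptor of receptor tyrosine kinases, was higher by 3.29 on the log2 scale, the MAP kinase kinase MAP2K2 by 1.57 and the phospholipase PLCG1 by 1.38. The PI3 kinase subunit PIK3R1 was lower in MIA PaCa-2 with a log2 difference of -2.83 (-1.44 with the normexp correction), MAP2K1 with -1.21 and FRS2, the docking protein of the FGF receptors, with -1.14.

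Of 17 feedback and target genes tested, 7 had lower and 9 higher levels in MIA PaCa-2 (median -0.39). The ERK phosphatases DUSP5, DUSP6 and DUSP4 were lower, with log2 differences of -4.44, -4.26 and -3.37. The Sprouty genes, which encode inhibitors of receptor tyrosine kinase signaling, were higher, with 3.65 for SPRY2, 2.94 for SPRY4 and 2.58 for SPRY1 (adjusted p at most 1.1e-05 for the 6 genes). The other probe of SPRY4 differed by 0.47 (adjusted p = 0.165). SPRY1 is also a neighbor of FGF2 on chromosome 4, where NUDT6 was higher by 1.38 (adjusted p = 0.00014) and SPATA5 at least 3.98-fold higher. SPATA5 was in the background in Capan-1, so its direction follows from the filter. Its call was lost without either siRNA array or parental replicate 1 of MIA PaCa-2 or either parental array of Capan-1.

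Of 6 release factors and intracellular partners of FGF1 and FGF2 tested, 2 were lower and 4 higher (median 0.46). SYT1, a synaptotagmin that takes part in the release of FGF1, was at least 58.3-fold higher in MIA PaCa-2, a direction that follows from the filter. Its other probe differed by 0.68 (adjusted p = 0.309). The FGF1-binding protein FIBP had a log2 difference of -0.38 (adjusted p = 0.0145), whereas S100A13 was higher by 0.49 (adjusted p = 0.0053) and API5 by 0.57 (adjusted p = 0.0458). The call of API5 was lost when any 1 array other than parental replicate 1 of MIA PaCa-2 was left out, and that of FIBP without parental replicate 2 of MIA PaCa-2 or parental replicate 1 of Capan-1. With spike-in scaling the calls of S100A13 (0.32, adjusted p = 0.196), FIBP (adjusted p = 0.0564) and API5 (adjusted p = 0.154) were lost, and without scaling that of FIBP (adjusted p = 0.184).

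**Figure D4:**
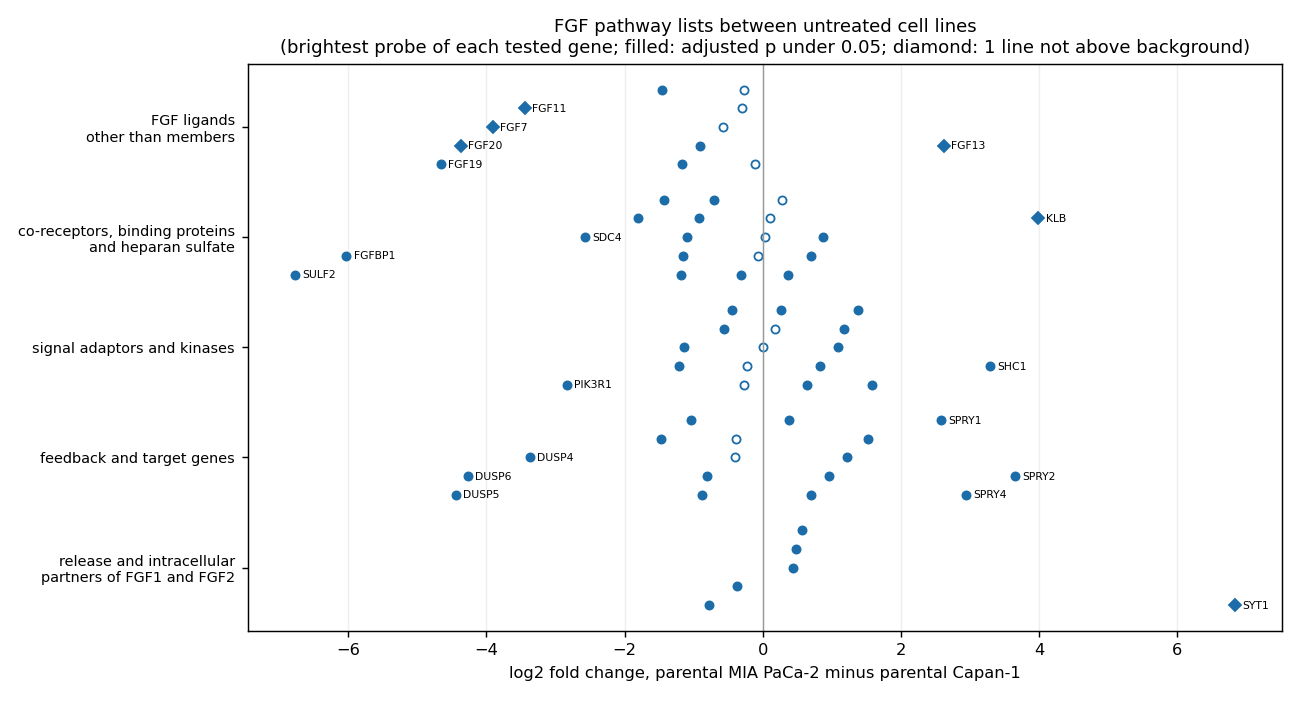
Log2 fold change between parental MIA PaCa-2 and parental Capan-1 (x axis) of the brightest probe of each tested pathway gene, by list (y axis, points spread vertically for legibility only); filled symbols passed the limma threshold, and diamonds have 1 line in the background, where the value is not a bound. SULF2, FGFBP1, DUSP5 and DUSP6 lie far to the left (lower in MIA PaCa-2), and SPRY2, SHC1 and SYT1 to the right.

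As a description, the probes whose pattern over the 8 arrays was most like that of FGF2 probe 1 were sought among 17846 probes of other named genes with signal well above background on all arrays of MIA PaCa-2. The highest Pearson r was 0.999 for GPER1, a G protein-coupled estrogen receptor, followed by 0.997 for PAQR6 and 0.995 for SNHG12, PDIA2 and SLC25A4. GPER1 had mean levels of 0.97 in parental and -0.034 in siRNA-treated MIA PaCa-2 cells, and of -1.51 and -1.61 in Capan-1. SLC25A4, the ADP/ATP carrier, spanned less, from 2.63 to 2.29 in MIA PaCa-2 and 1.76 to 1.78 in Capan-1. The 8 arrays form 4 groups on 2 slides and the Capan-1 values of FGF2 are background. These coefficients therefore mainly reflect the gap between the lines and the lower level in siRNA-treated MIA PaCa-2 cells, on which FGF2 was chosen.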

How the data were processed

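RNA of MIA PaCa-2 and Capan-1 cells, 2 arrays of siRNA-treated and 2 of parental cells each, was hybridized by the authors to Agilent 4x44K arrays and read with Feature Extraction 9.5.3. The deposited intensity of each spot was background-subtracted and spatially detrended within its array by that software, with background and outlier calls beside it. The deposited table of log2 values holds the log2 of the same intensity, with no scaling between arrays, and served as an alternative. Probe positions are those of the deposited annotation (hg18).

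Spots with an outlier flag were left out, the log2 intensities of a probe were averaged, and the 75th percentile over gene probes was subtracted from each array. The 4 group means were fitted in 1 model of all 8 arrays (lmFit and eBayes of limma 3.58.1, R 4.3.3), with Benjamini-Hochberg adjustment over all probes tested. Files were read with data.table (version 1.17.8), and sequences and figures were handled in Python 3.11.15 with pandas 2.3.3 and matplotlib 3.10.9. Promoters are those of RefSeq (GRCh38.p14); protein sequences were not used here. The steps were tested on simulated data. With 2 arrays per group, the number of arrays limits the precision.

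The members and lists were chosen with earlier results of these data known. Named are the members, HOXB7, genes of the pathway lists past the threshold after siRNA, the 3 largest differences per direction and list between the parental lines, NUDT6, SPATA5 and the 5 genes most like FGF2. Where 1 line is in the background a difference is a bound, and bounds have no order. Marker genes are named as the lists' defining members. The values of 1 gene that this rule would name are not reported here. A gene of a list counts as lower or higher when a probe of it passed in that direction, whereas background shares count probes. The alternatives were normexp background correction, quantile, no or spike-in scaling, the outlier flags, the deposited log2 values, other filters on dim probes, each line alone, the replicate block, an intensity trend in the spread, each array left out, and for the interval its width, window and pairing.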

Additional observations from a re-analysis of the deposited data

How the results depend on the processing

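Of 455 alternative values of the members' log2 ratios, 419 kept their direction and their side of the threshold or moved by less than the spread between duplicates, 15 moved further, 7 lost and 4 gained a call, and 10 tested ratios changed sign. The MIA PaCa-2 ratio of FGF2 probe 1 was -2.37 without scaling between arrays, -0.44 with normexp, whose offset of 50 exceeds its siRNA intensities, and -2.33 to -1.98 with 1 array left out. The untested MIA PaCa-2 ratios of FGFR4 (0.022) and FGFR2 probe 1 (-0.061) also changed sign, FGFR4 with spike-in and quantile scaling, to -0.19 without scaling and to -0.16 with 1 array left out, and FGFR2 probe 1 to 0.0029 with normexp and 0.032 with 1 array left out. In Capan-1, FGFR3 probe 1 was 0.049 with normexp. There FGF1 probe 1 was -0.052 without scaling, -0.26 with spike-in scaling and -0.071 to 0.27 with 1 array left out. FGFR4 in Capan-1 was -0.15 without scaling, -0.35 with spike-in scaling and -0.15 to 0.16 with 1 array left out, with -0.030 without parental replicate 1. FGFR1 probe 1 in Capan-1 ranged from -0.40 to 2.28 with 1 array left out. The difference between the parental lines ranged from -0.28 to 0.079 for FGFR4 with 1 array left out, and the MIA PaCa-2 ratio of SPATA5 from -1.19 to 0.33. The cause was not tested.

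The number of member probes past the threshold in Capan-1 was 0 to 1 with 1 array left out, 1 without siRNA replicate 1 of Capan-1. Between the parental lines it was 3 in place of 7 when all 8 arrays had to be well above background, since fewer probes were then tested, and 6 to 7 with 1 array left out. A 95% interval left 3 member probes outside in MIA PaCa-2 (both of FGF2 and FGFR3 probe 1) and 2 in Capan-1 (FGF1 probe 2 and FGFR2 probe 1), and crossed replicate numbers left 2 and 0. The count of pathway genes past the threshold in MIA PaCa-2, 1 in the report, was 3 with normexp, 2 with quantile scaling, 4 with probes well above background on all 8 arrays, 5 with an intensity trend, 0 without scaling, with spike-in scaling, without a filter on dim probes, with each line fitted alone and with the replicate block, and 0 to 3 with 1 array left out. In Capan-1 it was 1 with normexp, and between the lines it ranged from 50 to 59.

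The replicate numbers are shared only in name: deviations of same-numbered arrays from their group means had correlations of 0.020 (MIA PaCa-2) and 0.038 (Capan-1) over 20359 probes. With the replicate block the MIA PaCa-2 ratio of FGF2 probe 1 was -2.15 (SE 0.15), 0 and 7 member probes passed in Capan-1 and between the lines, and over all probes of MIA PaCa-2, 12 fell and 7 rose, against 221 and 228 without it. With spike-in scaling the median of all tested probes was -0.084 in MIA PaCa-2, -0.36 in Capan-1 and -0.059 between the lines. Weak signal limits FGF2 in Capan-1, where a level under the background cannot be measured.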
